A study of Danio rerio with 12 samples.

Results

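The 295 genes described here were higher in zebrafish larvae labelled as zbtb24 mutant than in larvae labelled as zbtb24 wild type, whether or not the larvae also carried a mutation in mda5. They were chosen by their values: among features that averaged 1 FPKM or more across all 12 libraries, the lowest of the 6 zbtb24-mutant libraries lay above the highest of the 6 zbtb24-wild-type libraries. FPKM are fragments per kilobase of transcript, relative to the mapped fragments of a library. Of 32271 features in the table, 19424 reached the minimum mean, and the members made up 1.52% of these. The mirror rule, with all 6 zbtb24-mutant libraries below the other 6, held for 237 features, or 1.22%. Since the rule used the differences between zbtb24 genotypes, those differences are given below as a description and carry no test.

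Polyadenylated RNA came from 3-week-old larvae, with 3 libraries for each of 4 genotypes and a pool of 10 larvae behind each library. Double mutants were homozygous for both mda5 mk29 and zbtb24 mk22, zbtb24 mutants for the second allele alone and mda5 mutants for the first alone, and WT larvae carried neither. The zbtb24 allele is a deletion that removes coding exons, and the mda5 allele is a small deletion in the part of the gene that encodes the helicase domain. The sample labels give fin as the source while the study design describes whole larvae. Summed markers of exocrine pancreas, liver and photoreceptors, which are not fin tissues, were at least 4202, 2565 and 267 FPKM in every library. These values go with whole larvae. Zbtb24 is a zinc finger transcription factor whose human counterpart is mutated in ICF syndrome, an immunodeficiency in which the DNA near centromeres loses methylation. Mda5, encoded by ifih1, is a helicase that binds long double-stranded RNA in the cytosol and starts a signal that ends in interferon production. Interferons then switch on antiviral genes through receptor-bound kinases and STAT transcription factors.

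The targeted genes were looked at first. The gene-level value of ZBTB24 was higher in the libraries labelled as zbtb24 mutant, at 1.4, 1.23 and 1.47 FPKM in double mutants and 1.74, 1.4 and 1.06 FPKM in zbtb24 mutants, against 0.469, 0.538 and 0.477 FPKM in mda5 single mutants and 0.348, 0.510 and 0.587 FPKM in WT larvae. These levels run opposite to what a loss of transcript would give, but a gene-level value also covers sequence outside the deletion, so it does not check the label, and genotypes are used below as labelled. By quantitative PCR on younger fish, the paper found no detectable zbtb24 transcript in homozygotes for this allele, unlike the values here. The cause of this mismatch was not tested. With a mean of 0.935 FPKM, ZBTB24 itself met the separation and missed only the minimum mean. IFIH1 had 0.573, 0.559 and 0.381 FPKM in double mutants and 1.35, 1.87 and 1.54 FPKM in zbtb24 mutants, against 0.354, 0.613 and 0.493 FPKM in mda5 single mutants and 0.751, 0.732 and 0.820 FPKM in WT larvae. The table gives no fragment counts, so the depth behind a value is unknown and the spread between the 3 libraries is the only measure of error. Summed over all features, between 84.2% and 89.9% of a library's FPKM lay in its top 4.

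The members were mostly genes of modest level and modest difference. Their median mean was 6.52 FPKM, next to 5.91 FPKM for all features that reached the minimum, 191 members averaged under 10 FPKM, 15 averaged at least 100 FPKM, and no member was listed at 0 in any library. In larvae with intact mda5, the median difference of zbtb24 mutants from WT was 0.54 on the log2(FPKM + 0.5) scale (quartiles 0.31 and 0.81, range 0.10 to 3.40). In larvae without Mda5, double mutants differed from mda5 mutants by a median of 0.38 (quartiles 0.23 and 0.65, range 0.05 to 3.22). The medians over all features that reached the minimum mean were −0.01 and 0.02.

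None of the markers of 12 cell types was a member. The markers are few, and members made up only 1.52% of all features with the minimum mean, so this absence is no result. Several marker sums differed along with the members. The 2 of 3 blood markers that were found summed to between 10.7 and 159 FPKM in double mutants and 3.71 and 13.6 FPKM in zbtb24 mutants, against 40.7 to 445 FPKM in mda5 single mutants and 329 to 694 FPKM in WT larvae. Blood markers were thus far lower in every zbtb24 mutant library than in WT, while double and mda5 mutants overlapped. Photoreceptor markers (4 features) summed to between 375 and 710.0 FPKM in double mutants and 267 and 531 FPKM in zbtb24 mutants, against 745 to 930.1 FPKM in mda5 single mutants and 536 to 728 FPKM in WT larvae, lower in both comparisons without overlap. Between double and mda5 mutants alone of these 2 comparisons, sums were also apart for neurons, which were lower in double mutants, and for lymphocytes, skin and exocrine pancreas, which were higher. In bulk RNA from pools, a different number of cells of a type and a different amount of RNA per cell cannot be told apart, and the part of cell makeup in the members' values was not tested.

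A 2-fold difference was reached by 56 members in zbtb24 single mutants against WT, where 1.95% of all features with the minimum mean were at least 2-fold higher, and by 39 members in double mutants against mda5 mutants, where 0.952% were. Both differences were at least 2-fold in 27 members, the first alone in 29, the second alone in 12 and neither in 227. Small differences in both backgrounds, under 0.5 on the log2 scale, held for 121 members. Across the 295 members the 2 differences, which share no library, had a Pearson r of 0.74 and a Spearman rho of 0.63, a description over genes that are not independent and that were all chosen to lie above 0. Members or not, 64 features with the minimum mean were at least 2-fold higher in both comparisons.

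**Figure D1:**
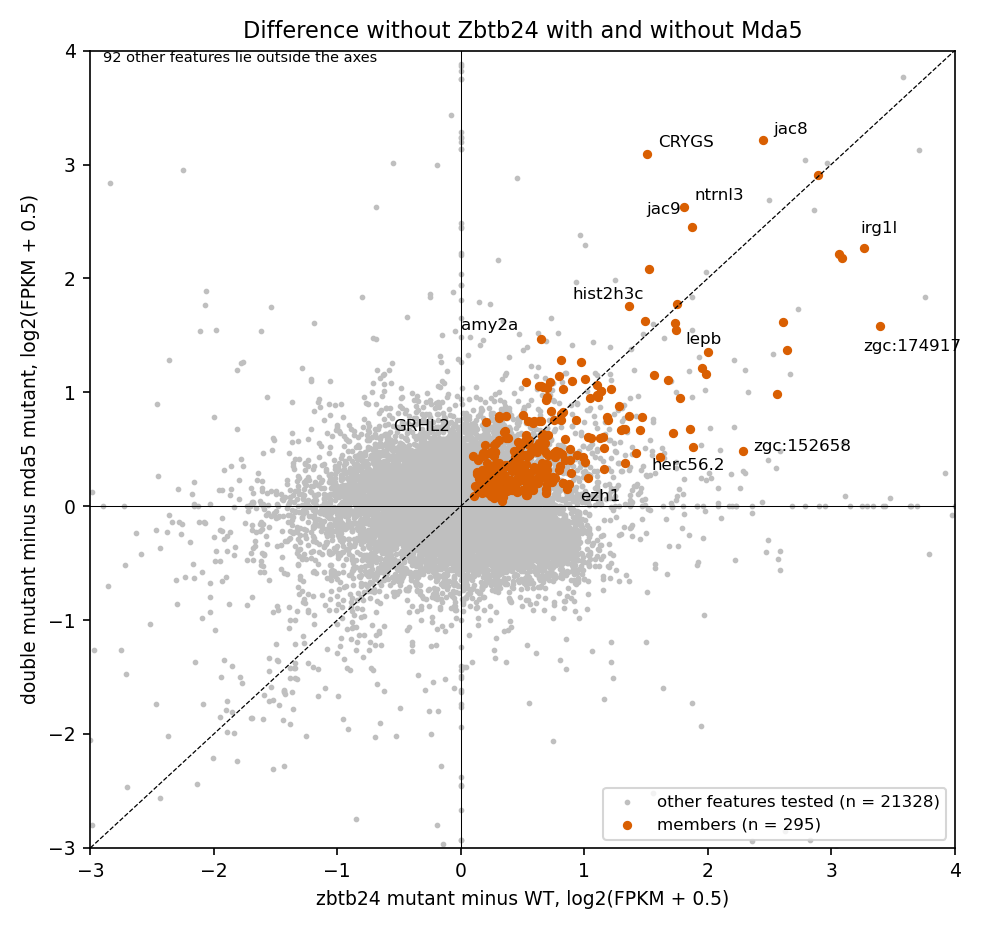
Each point is a feature, with the zbtb24 mutant minus WT difference on the horizontal axis and the double mutant minus mda5 mutant difference on the vertical axis, both in log2(FPKM + 0.5), the 295 members in orange and other features tested in grey (92 of which lie outside the axes). The members fill the upper right corner by construction, with irg1l and zgc:174917 below the dashed line of equal differences and jac8, jac9, ntrnl3 and CRYGS above it.

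The separation was narrow for most members. The gap between the lowest zbtb24-mutant and the highest zbtb24-wild-type library was at least 1 on the log2 scale for 6 members, under 0.1 for 186 and under 0.01 for 34, with a median of 0.06. Just inside the threshold stood ezh1, tcf20 and npr1a. The lowest zbtb24-mutant library of tcf20 had 7.68 FPKM and so did its highest zbtb24-wild-type library, which differ only beyond the printed digits. Just outside stood HNRNPK, zgc:113625 and 1 feature without a symbol. For HNRNPK, the lowest zbtb24-mutant value was 55.97 FPKM, in a double mutant library, and the highest zbtb24-wild-type value was 55.98 FPKM, in an mda5 mutant library. A member near the threshold is therefore not set apart from its nearest non-members by size.

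A set of neighbouring genes held the largest difference of any member with intact mda5, that of zgc:174917 (3.40), while the largest without Mda5 was that of jac8 (3.22). By gene order in a RefSeq annotation of another zebrafish assembly (GRCz12tu), on which 237 of the 295 members could be placed by name, irg1l, si:ch211-153b23.3, si:ch211-153b23.4, si:ch211-153b23.5 and zgc:174917 stood directly next to each other, and all 5 were members. irg1l is a relative of the gene for the enzyme that makes itaconate, an antimicrobial metabolite of activated macrophages in mammals. irg1l had 33.3, 49.2 and 41.1 FPKM in double mutants and 64.8, 53.04 and 51.3 FPKM in zbtb24 mutants, against 7.49, 15.4 and 4.40 FPKM in mda5 single mutants and 8.55, 3.02 and 5.82 FPKM in WT larvae. The groups were far apart, with the lowest zbtb24-mutant library above the highest of the others by 1.09 on the log2 scale. zgc:174917 had 16.4, 20.4 and 26.2 FPKM in double mutants and 26.4, 42.4 and 38.4 FPKM in zbtb24 mutants, against 9.70, 12.6 and 2.14 FPKM in mda5 single mutants and 2.74, 1.59 and 5.18 FPKM in WT larvae. Its 3 zbtb24 mutant libraries lay above all 3 double mutant libraries, and its mda5 mutant replicate 3 was well below the other mda5 mutants, a library that was also lowest of its group for the other 4 genes of the run. The most abundant of the 5 was si:ch211-153b23.5, with 199 ± 57.4 FPKM in double mutants and 266 ± 115 FPKM in zbtb24 mutants, against 46.3 ± 25.5 FPKM in mda5 single mutants and 29.7 ± 8.28 FPKM in WT larvae (SD, n = 3 each). Over the run, the differences ranged from 2.61 to 3.40 in zbtb24 single mutants against WT and from 1.58 to 2.27 in double mutants against mda5 mutants.

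A second run of neighbours held jac8 and jac9, named for jacalin lectins, which are sugar-binding proteins, and ntrnl3, named after the natterin toxins of fish venom. jac8 had 14.2, 47.0 and 39.6 FPKM in double mutants and 37.7, 31.2 and 32.4 FPKM in zbtb24 mutants, against 2.46, 3.19 and 2.69 FPKM in mda5 single mutants and 6.37, 5.03 and 5.98 FPKM in WT larvae. Replicate 1 of the double mutants was the lowest of the 6 high libraries and still above every mda5 mutant and WT library. jac9 had 8.49, 9.97 and 8.73 FPKM in double mutants and 8.64, 7.09 and 7.14 FPKM in zbtb24 mutants, against 2.24, 1.05 and 0.741 FPKM in mda5 single mutants and 1.78, 1.36 and 2.03 FPKM in WT larvae. Its gap of 1.47 on the log2 scale was the widest among the genes named by rule. For ntrnl3, double mutants averaged 14.1 ± 7.60 FPKM and zbtb24 mutants 15.8 ± 1.71 FPKM, against 1.69 ± 0.822 FPKM in mda5 single mutants and 4.17 ± 0.702 FPKM in WT larvae (SD, n = 3 each). The run ran opposite to the irg1l run in the order of its differences, which were larger without Mda5 for all 3 genes (2.45 to 3.22) than with it (1.81 to 2.44). Over the 3 genes, the median of mda5 mutants minus WT was −0.94 and that of double minus zbtb24 mutants was −0.17. No gene of either run passed limma's test of the interaction, given below. Of 5 jacalin-related features with the minimum mean, 3 were members, or 60%, next to 1.52% of all features. The list was drawn up after these values were seen, so that this share is no result. The other features, jac6 and jac7, differed by 1.25 and −0.39 with intact mda5 and by 1.99 and 1.0 without Mda5.

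In all, the placed members formed 14 runs in which neighbours stood at most 5 genes apart, 11 of them of 2 genes. Another member stood within that distance of 33 placed members, or 13.9%, and a member other than the feature itself stood within it of 7.41% of all 15409 placed features with the minimum mean. The third run of 3 genes held the claudins cldn3c, cldnb and cldn30. The nearest member to zbtb24 was spint1a, 111 genes away, and 5 members, or 2.11% of those placed, shared its chromosome, next to 3.62% of the placed features. Gene order in the assembly used for the deposited values was not examined here.

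**Figure D2:**
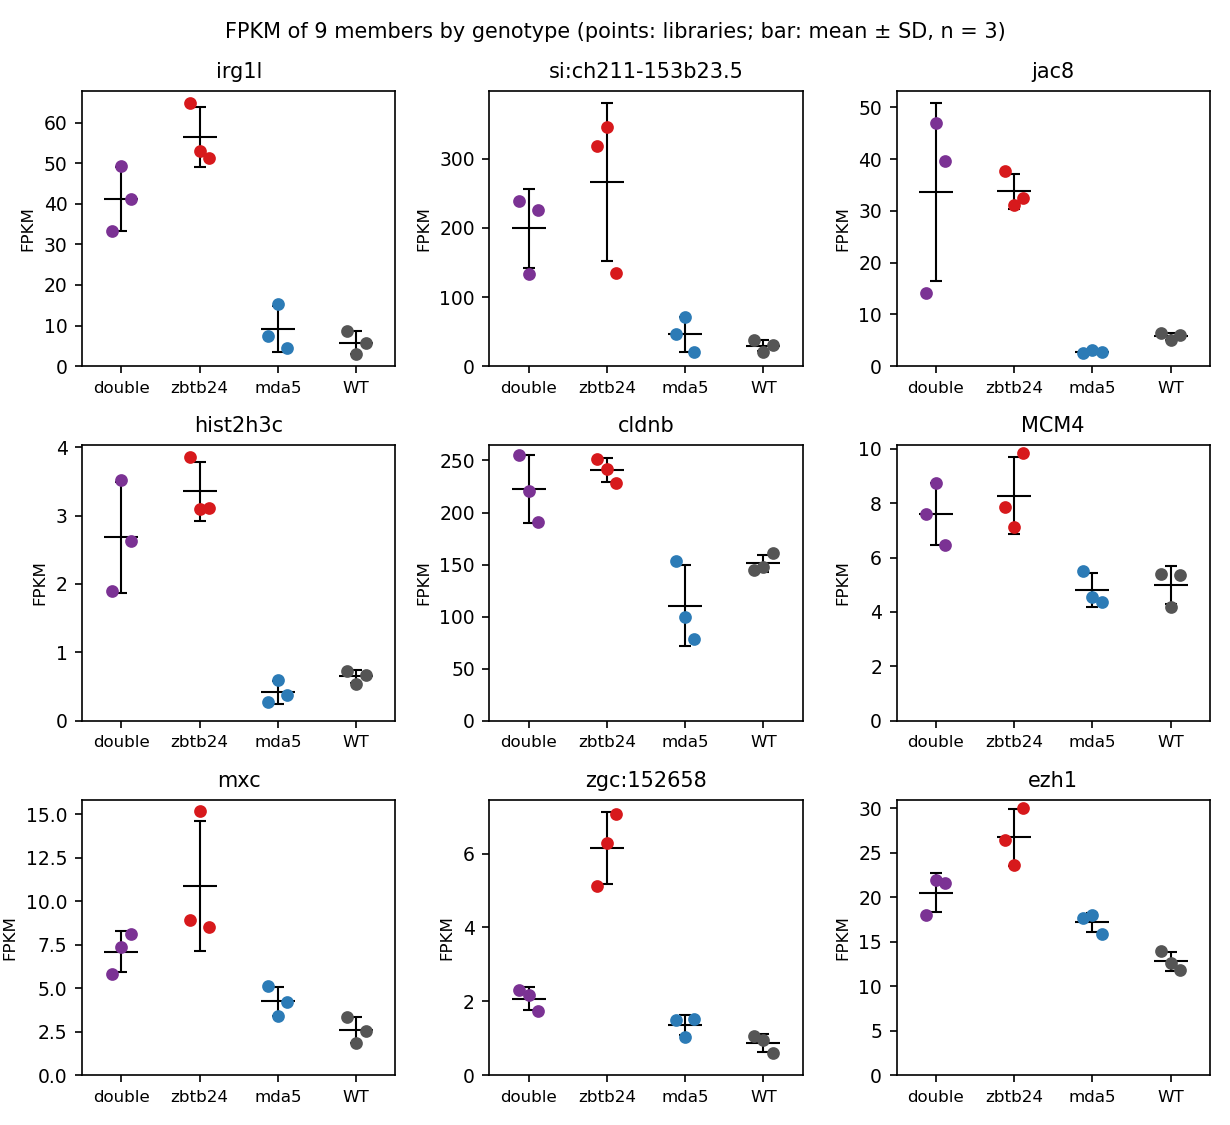
FPKM on linear axes from 0 for 9 members in double, zbtb24 and mda5 mutants and WT larvae, where each point is a library and each bar the mean ± SD (n = 3). irg1l, si:ch211-153b23.5, jac8 and hist2h3c show wide separations, cldnb and MCM4 moderate ones at about the same level in both zbtb24-mutant groups, and zgc:152658 and ezh1 stand highest in the zbtb24 single mutants.

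Other members with large differences in both backgrounds had varied roles. hist2h3c, a histone H3 gene, had 1.90, 3.52 and 2.63 FPKM in double mutants and 3.85, 3.10 and 3.12 FPKM in zbtb24 mutants, against 0.274, 0.599 and 0.376 FPKM in mda5 single mutants and 0.730, 0.540 and 0.669 FPKM in WT larvae. On the log2(FPKM + 0.5) scale its 2 differences were nearly equal, at 1.75 ± 0.19 with intact mda5 and 1.78 ± 0.19 without it (limma estimate ± SE). At these low levels the added 0.5 weighs on both. The ratios of mean FPKM were 5.19 and 6.44. lepb, one of the zebrafish genes for the hormone leptin, averaged 3.79 ± 1.38 FPKM in double mutants and 2.90 ± 1.12 FPKM in zbtb24 mutants, against 0.907 ± 0.412 FPKM in mda5 single mutants and 0.502 ± 0.256 FPKM in WT larvae (SD, n = 3 each). The feature with the largest smaller difference, ENSDARG00000105472, has no symbol in the tables used here and differed by 2.89 and 2.91. CRYGS, a lens crystallin, had the largest positive interaction value, with differences of 1.51 with intact mda5 and 3.10 without it. Its double mutants spread from 5.22 to 15.4 FPKM, its zbtb24 mutants from 1.89 to 5.39 FPKM, its mda5 mutants from 0.236 to 0.778 FPKM and its WT larvae from 0.629 to 1.45 FPKM. Genes of the body surface and fin also stood here, chosen after their values were seen. cyt1, a keratin, differed by 1.53 and 2.09, and and3, an actinodin of the fin fold, by 1.95 and 1.22.

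POLR2A, the largest subunit of RNA polymerase II, followed the shared pattern most closely. Its r with the mean of the 295 members over the 12 libraries was 0.97, a mean that includes it. POLR2A had 44.0, 43.8 and 38.8 FPKM in double mutants and 44.6, 47.4 and 42.3 FPKM in zbtb24 mutants, against 20.5, 21.4 and 22.7 FPKM in mda5 single mutants and 22.4, 21.5 and 20.4 FPKM in WT larvae. The 4 groups were tight, and the interaction value was −0.09 ± 0.13 (SE). brdt, a bromodomain gene, was as close to the shared pattern (r = 0.97) and averaged 15.2 ± 1.14 FPKM in double mutants and 15.3 ± 0.222 FPKM in zbtb24 mutants, against 8.76 ± 0.508 FPKM in mda5 single mutants and 8.86 ± 0.465 FPKM in WT larvae (SD, n = 3 each). Among members, r with this mean ranged from 0.50 to 0.97, with a median of 0.85. An r of at least 0.9 was reached by 63 members and by 7 features that were not members, snrkb, xiap and ARID4A among them.

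Of 22 interferon-stimulated genes that reached the minimum mean, 3 were members, or 13.6%, next to 1.52% of all features. They were mxc and mxf, which encode dynamin-like antiviral GTPases, and ifi35. The list's median difference was 1.59 in zbtb24 single mutants against WT and 0.13 in double mutants against mda5 mutants. mxc had 5.82, 7.38 and 8.09 FPKM in double mutants and 8.90, 15.2 and 8.49 FPKM in zbtb24 mutants, against 5.10, 3.41 and 4.22 FPKM in mda5 single mutants and 3.36, 1.86 and 2.56 FPKM in WT larvae. All 3 zbtb24 mutant libraries lay above the double mutants, and all 3 mda5 mutants above WT. mxf averaged 1.2 ± 0.0698 FPKM in double mutants and 2.28 ± 1.09 FPKM in zbtb24 mutants, against 0.763 ± 0.0407 FPKM in mda5 single mutants and 0.356 ± 0.0227 FPKM in WT larvae (SD, n = 3 each). IRF7, the transcription factor that amplifies interferon production, was not a member, with 15.4, 11.7 and 8.79 FPKM in double mutants and 22.3, 36.3 and 34.4 FPKM in zbtb24 mutants, against 8.80, 6.69 and 5.91 FPKM in mda5 single mutants and 7.44, 7.38 and 6.52 FPKM in WT larvae. Its lowest double mutant library, at 8.79 FPKM, stood just under its highest mda5 mutant library, at 8.80 FPKM. None of 6 RNA sensing genes with the minimum mean was a member, a list too short for this absence to be a result.

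A further 14 members of the response were collected after their values were seen, so that their number is no result. They include the kinase TYK2 and the factor STAT4 of cytokine signalling, TAP1, tap2t and ERAP1, which transport and trim peptides for MHC class I, the class I genes mhc1zfa and mhc1zja, usp18, which removes ISG15 from proteins, the ubiquitin ligase herc56.2, and parp9, parp12b and parp14rs3 of the ADP-ribosyltransferase family. STAT4 had 14.5, 14.5 and 13.7 FPKM in double mutants and 16.3, 17.9 and 16.5 FPKM in zbtb24 mutants, against 10.3, 11.9 and 8.44 FPKM in mda5 single mutants and 8.50, 4.77 and 5.30 FPKM in WT larvae. TAP1 averaged 3.89 ± 0.838 FPKM in double mutants and 6.26 ± 2.30 FPKM in zbtb24 mutants, against 2.83 ± 0.220 FPKM in mda5 single mutants and 2.09 ± 0.335 FPKM in WT larvae (SD, n = 3 each). Over the 17 interferon response members, the median difference was 0.88 with intact mda5 and 0.43 without it, and the interaction value was below 0 for 15 of them. It was below 0 for 207 of all 295 members and for 46.8% of all features. The rule bears on such counts, as set out below. mhc1zfa was an interferon response member not below 0, and its double mutant mean rests on replicate 1, at 6.62 FPKM, next to 0.670 and 0.525 FPKM in the other replicates. MHC and other multigene families hold near-identical copies whose reads may be split between genes, and 29 members share their symbol with another identifier.

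Receptors and ligands that signal between cells were also among the members. Of 11 receptors of the class II cytokine family with the minimum mean, 4 were members, or 36.4%, next to 1.52% of all features. The list was also chosen after values were seen, so that this share is no result. The 4 were crfb2, part of the zebrafish receptor for virus-induced interferon, il10rb, a chain shared by receptors of the interleukin-10 family, il22ra2, a soluble interleukin-22 binding protein in mammals, and crfb15. The median of all 11 was 0.37 in zbtb24 single mutants against WT and 0.22 in double mutants against mda5 mutants. il22ra2 had 4.11, 3.49 and 2.72 FPKM in double mutants and 3.87, 3.18 and 2.89 FPKM in zbtb24 mutants, against 2.56, 1.24 and 1.29 FPKM in mda5 single mutants and 1.47, 0.946 and 0.838 FPKM in WT larvae. The chemokine cxcl19 had 17.8, 11.3 and 12.8 FPKM in double mutants and 11.14, 13.3 and 16.4 FPKM in zbtb24 mutants, against 5.56, 6.92 and 7.31 FPKM in mda5 single mutants and 7.61, 4.21 and 6.16 FPKM in WT larvae. The ranges of double and zbtb24 mutants overlapped for both genes. Together with the chemokine ccl20a.3 these 6 members had median differences of 0.78 with intact mda5 and 0.68 without it, and their interaction values, which set the difference without Mda5 against that with it, ran from −0.40 to 0.34.

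**Figure D3:**
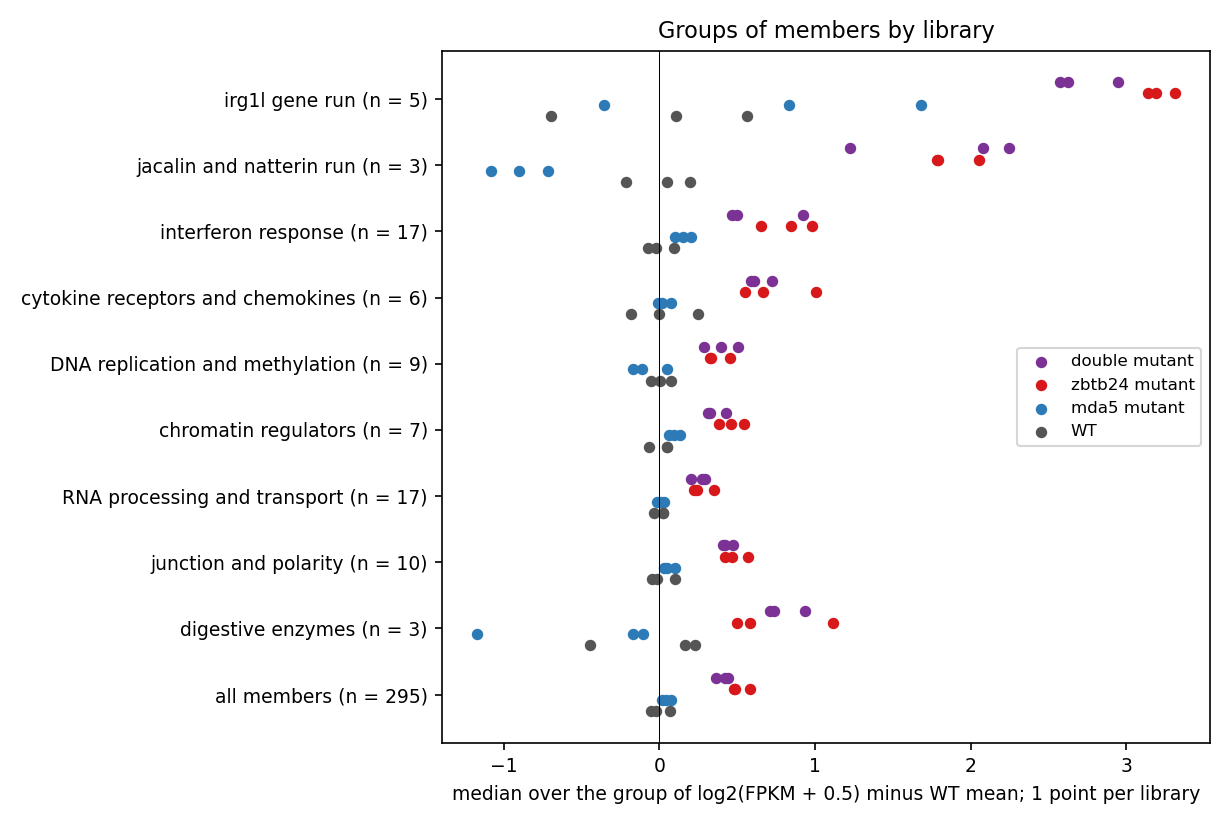
Each row is a group of members and each point 1 library, placed at the group's median of log2(FPKM + 0.5) minus the WT mean, with double, zbtb24 and mda5 mutants and WT larvae from top to bottom within a row. In the interferon response row the double mutants lie mostly left of the zbtb24 mutants, in the rows for cytokine receptors and for DNA replication the 2 overlap, and in the jacalin row the mda5 mutants lie left of WT.

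DNMT1 and HELLS were the members of the list of ICF and DNA methylation genes, of which 9 reached the minimum mean. Members were 22.2% of these, next to 1.52% of all features, but the list is too short for this share to be a result. DNMT1 copies methylation onto newly made DNA, and HELLS is a chromatin remodeller that is itself mutated in ICF syndrome. DNMT1 had 6.96, 7.04 and 5.99 FPKM in double mutants and 7.61, 7.54 and 6.81 FPKM in zbtb24 mutants, against 5.38, 5.36 and 5.28 FPKM in mda5 single mutants and 4.94, 5.11 and 4.40 FPKM in WT larvae. HELLS had 3.94, 4.18 and 3.10 FPKM in double mutants and 3.68, 3.46 and 2.76 FPKM in zbtb24 mutants, against 2.47, 1.99 and 2.07 FPKM in mda5 single mutants and 2.66, 2.35 and 2.36 FPKM in WT larvae. The difference of DNMT1 was 0.56 with intact mda5 and 0.29 without it, and that of HELLS 0.36 and 0.66. UHRF1 and cdca7b were not members, since each had a zbtb24-mutant library below its highest zbtb24-wild-type library. Nor were tet3, TET1, TET2 and dnmt3ba, which differed by 0.31, 0.56, 0.02 and 0.02 with intact mda5. Without Mda5 they were lower, at −0.25, −0.21, −0.13 and −0.06. The remaining gene, dnmt3bb.3, differed by 0.01 and 0.26. The paper reports that zbtb24 mutants had almost entirely lost the expression of cdca7, by RNA sequencing and by quantitative PCR. Its legend names the RNA sequencing set with the double mutants as the source, and the same figure shows hells. The values here cover cdca7b only, so that report was not checked. The list's median difference was 0.31 in zbtb24 single mutants against WT and 0.24 in double mutants against mda5 mutants.

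Genes of DNA replication were also among the members, counted here over a list drawn up after values were seen. Of 43 replication and mismatch repair features with the minimum mean, 7 were members, or 16.3%, next to 1.52% of all features. With the list so chosen, this share is no result. The 7 were MCM4 of the replicative helicase, the catalytic polymerase subunits POLD1 and POLE, the clamp loader subunit RFC4, the mismatch repair gene MSH6, the histone chaperone NASP and SSRP1 of the FACT complex. MCM4 had 7.60, 8.73 and 6.45 FPKM in double mutants and 7.85, 7.13 and 9.86 FPKM in zbtb24 mutants, against 5.51, 4.55 and 4.36 FPKM in mda5 single mutants and 5.40, 4.20 and 5.36 FPKM in WT larvae. The list's median was 0.22 in zbtb24 single mutants against WT and 0.35 in double mutants against mda5 mutants.

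The remaining lists contributed few members. cdkn1a, which encodes the cell cycle inhibitor p21, was the only member among 10 p53 targets, and averaged 82.8 ± 7.60 FPKM in double mutants and 79.0 ± 7.40 FPKM in zbtb24 mutants, against 57.4 ± 14.9 FPKM in mda5 single mutants and 51.1 ± 9.58 FPKM in WT larvae (SD, n = 3 each). hsf1, the heat shock transcription factor, was the only one of 6 heat shock genes. Of 374 solute carriers, 8 were members (SLC35B2, SLC26A2, slc25a36b, SLC4A4, SLC38A8, SLC16A6, SLC7A3 and slc12a10.2), or 2.14%, and of 2288 features of multigene families 49 were, also 2.14%, both near the 1.52% of all features. No member came from 20 complement genes, 37 protocadherins, 9 neutrophil and macrophage genes or 3 germline genes with the minimum mean. At a share of 1.52%, lists of these sizes can easily hold no member, so this absence is no result.

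Claudins, the membrane proteins of tight junctions, supplied 4 members of 32 with the minimum mean, or 12.5%, next to 1.52% of all features. The list was drawn up after values were seen, so that this share is no result. Of the 4, 3 were neighbours. cldnb averaged 222 ± 32.5 FPKM in double mutants and 240.4 ± 11.6 FPKM in zbtb24 mutants, against 111 ± 38.8 FPKM in mda5 single mutants and 151 ± 8.45 FPKM in WT larvae (SD, n = 3 each). cldn3c differed by 0.63 and 0.75, cldn30 by 0.66 and 0.62 and cldnf by 0.53 and 0.56, while the median of all 32 claudins was −0.18 in zbtb24 single mutants against WT and 0.28 in double mutants against mda5 mutants. The 3 keratin markers of skin, all found, summed to between 7855 and 8697 FPKM in double mutants and 5904 and 8128 FPKM in zbtb24 mutants, against 4493 to 5979 FPKM in mda5 single mutants and 5953 to 8039 FPKM in WT larvae. These sums overlapped between zbtb24 mutants and WT and not between double and mda5 mutants, and their part in the claudin values was not tested.

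Digestive enzymes supplied 3 members of 14 with the minimum mean, or 21.4%, next to 1.52% of all features. This list too was drawn up after values were seen, so that the share is no result. The median of all 14 was 0.18 in zbtb24 single mutants against WT and 0.73 in double mutants against mda5 mutants. amy2a, the pancreatic amylase and 1 of the 4 members of highest mean, had 914, 797 and 781 FPKM in double mutants and 589, 990 and 716 FPKM in zbtb24 mutants, against 337, 424 and 186 FPKM in mda5 single mutants and 580.3, 350 and 535 FPKM in WT larvae. Its lowest zbtb24 mutant library lay only just above its highest WT library. CEL, a lipase activated by bile salts, and cela1.4, an elastase, differed by 0.81 and 1.14 in zbtb24 single mutants against WT and by 1.29 and 1.01 in double mutants against mda5 mutants. The 2 of 4 exocrine pancreas markers that were found summed to between 7307 and 9461 FPKM in double mutants and 6012 and 8799 FPKM in zbtb24 mutants, against 4202 to 5828 FPKM in mda5 single mutants and 5237 to 8546 FPKM in WT larvae. Between double and mda5 mutants these sums did not overlap, between zbtb24 mutants and WT they did, and their part in the enzyme values was not tested. The other genes named for a high mean, APOD, zgc:136930 and si:dkey-14d8.6, differed by 0.65, 1.1 and 0.83 with intact mda5 and by 0.75, 1.06 and 1.03 without it.

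**Figure D4:**
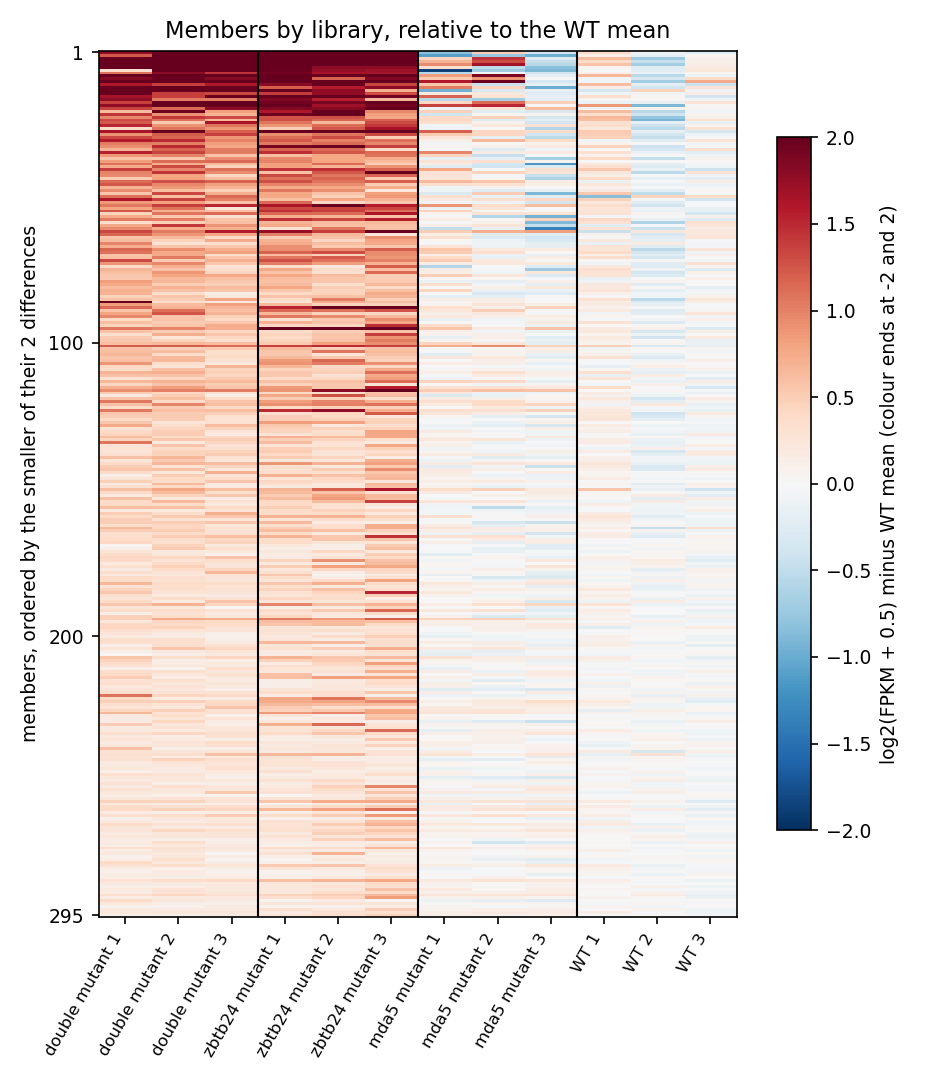
Rows are the 295 members, ordered from top to bottom by the smaller of their 2 differences, columns are the 12 libraries, and colour is log2(FPKM + 0.5) minus the WT mean of the gene. Red fills the 6 zbtb24-mutant columns and is deepest in zbtb24 mutant replicate 3 for many rows, while mda5 mutant and WT columns stay pale below the top rows.

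Whether the difference without Zbtb24 depended on mda5 was tested by the interaction, the double minus mda5 mutant difference less the zbtb24 mutant minus WT difference. No member and no other feature passed limma's test at an adjusted p of 0.05 (0% of 21623 features in either direction), and the smallest adjusted p among members was 0.0943. At an unadjusted p under 0.05 stood 44 members, 39 of them below 0 and 5 above, which is 14.9% of the members, next to 25.1% of all features (11.8% below 0 and 13.3% above). The interaction value was below 0 for 207 of the 295 members and for 46.8% of all features, with a median of −0.10 among members and a median SE of 0.19. The rule bears on this count, since it asks that both differences be above 0 and the 2 are not equally spread. Over all features with the minimum mean, quartiles were −0.27 and 0.24 in zbtb24 single mutants against WT. In double mutants against mda5 mutants they were −0.14 and 0.17. The result also rests on 1 library. Without WT replicate 2, 8 members passed, all below 0, which is 2.71% of the members. In the same fit 2161 of all features tested passed, or 9.99%, so members were called less often than features in general. The 8 members were zgc:152658, herc56.2, ezh1, kmt2a, KANK4, TYK2, AGO4 and crb2a.

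The members with the most negative interaction t were zgc:152658, herc56.2, ezh1 and KANK4. zgc:152658 had 2.32, 2.17 and 1.73 FPKM in double mutants and 5.11, 6.28 and 7.06 FPKM in zbtb24 mutants, against 1.49, 1.04 and 1.52 FPKM in mda5 single mutants and 1.05, 0.950 and 0.602 FPKM in WT larvae. The zbtb24 mutants stood apart from all other libraries, and the interaction value was −1.80 ± 0.25 (SE, adjusted p = 0.0943). ezh1, a methyltransferase for histone H3, had 18.0, 22.0 and 21.6 FPKM in double mutants and 26.5, 23.6 and 30.1 FPKM in zbtb24 mutants, against 17.7, 18.0 and 15.9 FPKM in mda5 single mutants and 14.0, 12.6 and 11.8 FPKM in WT larvae. Its 4 groups fell in steps, with double mutants just above mda5 mutants and mda5 mutants above WT, and its interaction value was −0.79 ± 0.17 (SE, adjusted p = 0.0982). The values of herc56.2 and KANK4 were −1.36 ± 0.25 and −0.58 ± 0.13 (SE, adjusted p = 0.0943 and 0.101). The histone methyltransferase kmt2a, named after its value was seen, stood at −0.71 ± 0.18 (SE, adjusted p = 0.101).

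The most positive interaction t belonged to GRHL2, a transcription factor of epithelia, CRYGS, si:ch73-70c5.2 and PPIL1, a spliceosomal cyclophilin. GRHL2 had 4.17, 3.72 and 3.53 FPKM in double mutants and 3.29, 3.54 and 3.21 FPKM in zbtb24 mutants, against 2.85, 2.68 and 2.49 FPKM in mda5 single mutants and 3.11, 3.10 and 3.08 FPKM in WT larvae. Its difference with intact mda5 was 0.10, the smallest of any member, while that without Mda5 was 0.44. The interaction values of these 4 genes lay between 0.34 and 1.58, with adjusted p from 0.136 to 0.189.

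**Figure D5:**
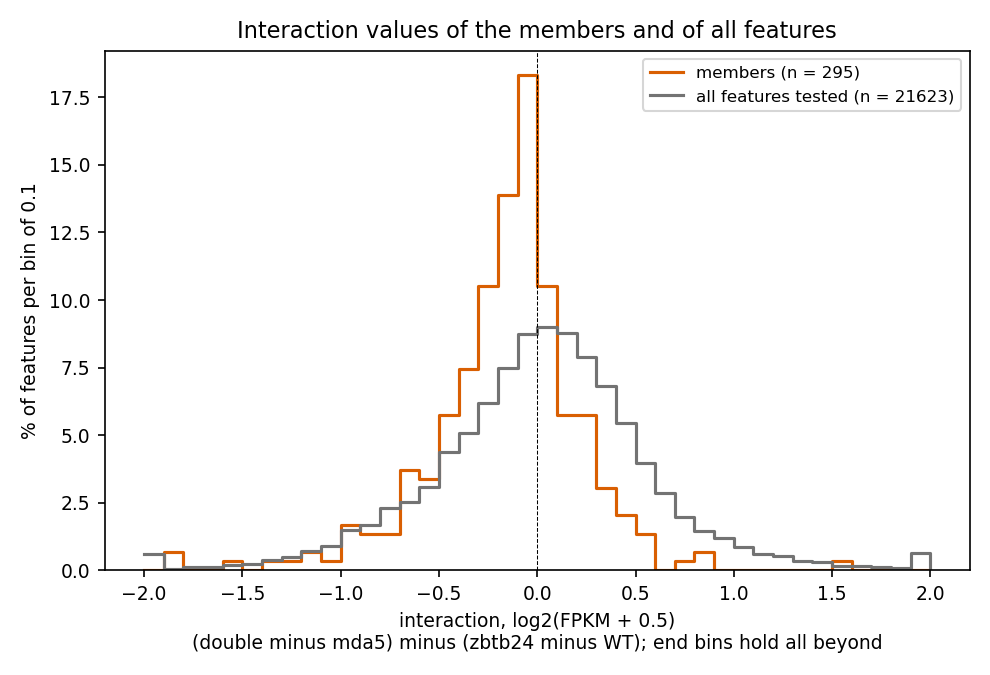
The horizontal axis is the interaction on the log2(FPKM + 0.5) scale in bins of 0.1, and the vertical axis the percentage of features in each bin, for the 295 members in orange and all 21623 features tested in grey. The members' curve is narrower and is shifted to negative values, with 207 members below 0.

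The rule did not compare mda5 genotypes directly, and no member passed in either mda5 comparison. It can still bear on the direction of both. Over all features, the difference of zbtb24 mutants from WT was the more widely spread. The rule can therefore favour members high in zbtb24 mutants and low in WT larvae, by an amount that was not tested. In double against zbtb24 mutants, where 0% of all features passed upward and 0.00462% downward, the smallest adjusted p among members was 0.108, for zgc:152658 at −1.37 ± 0.17 (SE). At an unadjusted p under 0.05 stood 39 members, or 13.2%, next to 14.4% of all features. Of these 39 members, 35 were lower in double mutants, where 6.64% of all features were, and 4 were higher, where 7.74% were. With a pseudocount of 1 in place of 0.5, zgc:152658 passed, with an adjusted p of 0.0492. The median over members was −0.08, next to 0.02 over all features tested. In mda5 mutants against WT, the share of all features that passed was again 0% upward and 0.00462% downward, and the smallest adjusted p among members was 0.284, for STAT4 at 0.71 ± 0.18 (SE). An unadjusted p under 0.05 was met by 19 members, or 6.44%, next to 13.6% of all features. Of these 19 members, 12 were higher in mda5 mutants (6.3% of all features were) and 7 lower (7.27% were). The median over members was 0.04, next to −0.02 over all features tested.

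Counts of libraries that lay apart carry the same limit, since the rule can favour members high in zbtb24 mutants and low in WT larvae. The share over all features is therefore not the share that the rule alone would give. Counted without a test, all 3 double mutant libraries lay below all 3 zbtb24 mutant libraries for 50 members, or 16.9%, next to 9.22% of all features with the minimum mean. The reverse held for 7 members (cyt1, FAAH2, zgc:165604, si:ch211-139n6.3, BTAF1, zgc:112964 and ARGLU1), or 2.37%, next to 12.5% of features. The 50 had varied roles, and those named here were picked after values were seen. Among them were irg1l, zgc:174917, mxc, herc56.2, usp18, TYK2, nfkb1, a subunit of the inflammatory factor NF-kB, and both histone methyltransferases ezh1 and kmt2a. SEC23B, APOD, SF3B1, xpo1a, MYO9A and PLD2 were also among the 50, and only 6 of the 17 interferon response members were. All 3 mda5 mutant libraries lay above WT for 32 members, or 10.8%, next to 7.43% of features, and below WT for 11, or 3.73%, next to 13.3%. mxc, mxf, TAP1, TYK2, DNMT1, ezh1, kmt2a and KANK4 were among the 32, and jac8, ntrnl3, GRHL2 and PPIL1 among the 11.

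Single libraries were unevenly represented at the edges of the groups. zbtb24 mutant replicate 3 was the highest of the 6 zbtb24-mutant libraries for 113 members, or 38.3%, and for 25.7% of all features with the minimum mean. Replicate 2 of the same group was highest for 52 members and replicate 1 for 38, against 36, 33 and 23 for the 3 double mutants. At the other edge, WT replicate 2 was lowest of the 6 for 87 members, or 29.5%, and for 13.4% of features. il10rb shows the upper edge only, with 26.8, 29.0 and 33.4 FPKM in double mutants and 26.3, 26.7 and 55.4 FPKM in zbtb24 mutants, against 25.6, 19.8 and 18.1 FPKM in mda5 single mutants and 19.6, 20.2 and 19.2 FPKM in WT larvae. Its lowest library was mda5 mutant replicate 3, not WT replicate 2. Without zbtb24 mutant replicate 3, the rule found 444 features, and without mda5 mutant replicate 1 it found 452. Leaving out any other single library gave from 316 (WT replicate 2) to 436 (double mutant replicate 3). These counts rest on the lowest zbtb24-mutant and highest zbtb24-wild-type values, not on the edges counted above. The median difference in zbtb24 single mutants against WT was 0.47 without zbtb24 mutant replicate 3 and 0.48 without WT replicate 2. Members varied less within groups than other features, as the rule favours, with a median coefficient of variation of 9.18% in double, 11.0% in zbtb24 and 8.76% in mda5 mutants and 9.99% in WT larvae, next to 12.2%, 14.3%, 11.2% and 13.6% over all features in the same order.

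Some members that handle chromatin and RNA were grouped after their values were seen, so that the choice of genes is no result. The 7 chromatin regulators, among them ezh1, kmt2a, SETD1B and KDM1A, had a median difference of 0.44 in zbtb24 single mutants against WT (0.14 to 1.03) and 0.19 in double mutants against mda5 mutants (0.13 to 0.76). SETD1B, a methyltransferase for histone H3, averaged 4.73 ± 0.226 FPKM in double mutants and 5.04 ± 0.375 FPKM in zbtb24 mutants, against 4.08 ± 0.245 FPKM in mda5 single mutants and 3.59 ± 0.262 FPKM in WT larvae (SD, n = 3 each). The 17 genes of RNA processing and nuclear transport, among them the splicing factor SF3B1, THOC2 of the mRNA export machinery and the nucleoporins NUP155 and RANBP2, had medians of 0.28 (0.11 to 0.69) and 0.27 (0.11 to 0.80) in the same comparisons. SF3B1 had 157, 172 and 173 FPKM in double mutants and 177, 175 and 175 FPKM in zbtb24 mutants, against 123, 127 and 139 FPKM in mda5 single mutants and 135, 124 and 123 FPKM in WT larvae. Its groups were separate though its differences were only 0.47 and 0.37, since its replicates lay close together.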

How the data were processed

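RNA from the 12 libraries was made into stranded libraries and sequenced from both ends. The authors trimmed reads with Trimmomatic 0.33, aligned them with TopHat2 2.1.1 to GRCz10 and estimated expression with Cufflinks 2.2.1. The deposited table holds FPKM, which the authors made comparable across libraries with Cuffnorm. Symbols came from a table of Ensembl identifiers, which named 272 of the 295 members.

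The members and gene lists were chosen with earlier results of these data known. Named genes were the 12 members with the largest smaller difference, the 4 of highest mean, the 4 of most positive and of most negative interaction t, members of the lists, and the 3 nearest the threshold on either side. Any other gene was named after its values were seen.

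Limma 3.58.1 in R 4.3.3 (lmFit, eBayes with trend) was fitted to log2(FPKM + 0.5) of the 21623 features averaging 0.5 FPKM or more, with 4 genotype means and 8 residual degrees of freedom. Fold changes of low genes are understated on this scale. Tests were two-sided, with Benjamini-Hochberg adjustment over all features and a threshold of 0.05. The p-values rest on the spread between pools. The fit was tested on simulated data in which 200 of 21623 features were changed. It recovered 29% of 2-fold interactions and 83.5% of 4-fold ones. For double against zbtb24 mutants it recovered 68% and 94%, and for mda5 mutants against WT 62% and 90.5%. The simulated errors were independent between features, which those of real libraries need not be. Recovery in these data may therefore differ from these shares. A member without a call can still differ between genotypes. Alternatives were pseudocounts of 0.1 and 1, other minimum means, other scalings, a replicate block, eBayes without trend, fits of the compared groups alone, and fits without each library.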

Additional observations from a re-analysis of the deposited data

How the results depend on the processing

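The rule found between 268 and 355 features with a minimum mean of 2 FPKM, of 0.5 FPKM or with none, and 308 to 342 after rescaling by library median, upper quartile or quantiles, which kept 275, 239 and 239 of the 295. Leaving out 1 library gave 316 to 452 features, as fewer libraries must separate. The median difference over members stayed within 0.47 to 0.58 in zbtb24 single mutants against WT and 0.35 to 0.42 in double mutants against mda5 mutants over all alternatives run.

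Without WT replicate 2, 8 members passed the interaction (0 to 8 over the fits without 1 library), and under every other alternative run 0 did. The 8 were 2.71% of the members, next to 9.99% of all features tested that passed in that fit. The number of members below 0 ranged from 177 to 218. The interaction was past the threshold without WT replicate 2 for zgc:152658 (−1.85), herc56.2 (−1.34), ezh1 (−0.78) and KANK4 (−0.56). In double against zbtb24 mutants, 1 member passed with a pseudocount of 1, and with rescaling by upper quartile 3 in place of 7 members had all double mutant libraries on top. The cause was not tested.

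Replicate numbers were not taken to pair the pools. Deviations of same-numbered libraries correlated at −0.08 to 0.17. Differently numbered libraries were not compared in this way, so these values do not settle whether any pools were related. With the replicate number as a block, 0 members passed in the interaction, in double against zbtb24 mutants and in mda5 mutants against WT. Depth is unknown, so counting error of low members cannot be given.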
